A study of Dicentrarchus labrax with 23 samples.

Results

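Pepsin A and acidic mammalian chitinase are digestive enzymes typical of the stomach, and their transcripts were measured here along the intestine of European sea bass (Dicentrarchus labrax). The probes CUST_L12_87775 (pepsin A) and CUST_L1_86990 (acidic mammalian chitinase) were chosen by name, and they are 2 of the 14147 probes of a custom Agilent microarray. The study compared the anterior (AI), middle (MI) and posterior (PI) intestine, with AI and MI also pooled as AI-MI. Each of the 23 arrays used here (8 of AI, 7 of MI and 8 of PI) was hybridised with Cy3-labeled RNA of 1 segment of 1 fish. AI was cut right behind the pyloric caeca, MI came from the middle of the tube, and PI was the end with the rectum. The groups differ only by segment: all fish were of Mediterranean origin, kept indoors on a commercial feed and sampled after a night without feed, and no treatment or genotype is described. No source used here states age or sex. The labels give each array a replicate number, and AI2, for example, stands for AI replicate 2.

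Pepsin A is an aspartic endopeptidase that gland cells of the stomach secrete as an inactive precursor, pepsinogen, which is cleaved to the active enzyme in acid. Acidic mammalian chitinase is a glycoside hydrolase that cuts chitin, the N-acetylglucosamine polymer of crustacean and insect cuticle. In the mouse it is made in the stomach and the lung and remains stable in acid, and carnivorous fish have chitinases in the stomach as well. Bile and pancreatic juice enter the gut behind the stomach, so the intestinal lumen is normally less acidic than the stomach. The study named each probe after the reference protein with the highest similarity, so both names are matches to proteins of other species. Neither probe could be tied to an entry of the sea bass gene table used here, so no genome position is given for them.

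Signals are given as the log2 of the processed signal minus the 75th percentile of the same array, so that 0 is the brightness of that percentile. Levels of different probes on this scale are not comparable, because every probe binds with its own strength. The 75th percentile was 388 to 1183 intensity units, and 82.8% to 93.1% of probes per array were called well above background by the extraction software. The lowest such signal lay between -7.77 and -5.85 on the log2 scale, and no spot was saturated. The segments carried the transcripts of intestinal epithelium: the mean of 5 probes (villin-1, intestinal fatty acid-binding protein, the peptide transporter SLC15A1, sucrase-isomaltase and maltase-glucoamylase) lay within 4.53 to 4.96 for AI, 4.30 to 4.84 for MI and 1.25 to 3.01 for PI. All 5 were well above background on every PI array.

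A few arrays stood apart from their segment, in a marker or in an enzyme. Gastrotropin, the ileal bile acid-binding protein, was 9.56 on AI2 against -5.42 to 4.45 on the other 7 AI arrays, and 8.91 to 9.78 in PI. In MI, gastrotropin ran from 3.72 on MI7 to 9.67 on MI3. By this marker MI3 did not stand apart, with MI6 at 9.23 and MI4 at 9.16. PI7 and PI8 carried more SLC15A1 (1.88 and 2.62) than the other 6 PI arrays (-1.17 to -0.16). Main results that move with AI2, MI3, MI7 or PI8 are given also without the array. AI2, MI3 and PI8 were picked for their enzyme values, after these had been seen.

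Pepsin A was bright in both AI and MI. Its signal on the 8 AI arrays had a lowest value of 3.40, a median of 4.49 and a highest value of 5.36, and every AI array lay within 1.95 log2 units of the others. On the 7 MI arrays the lowest value was 4.03, the median 5.82 and the highest 7.34. On the 8 PI arrays it ran from -8.79 through a median of -6.42 to -1.16, and 5 of them were still well above background. All 15 AI and MI arrays lay above all 8 PI arrays. For CUST_L12_87775 the mean of AI was 4.41 ± 0.72 (SD, n = 8), that of MI was 5.88 ± 1.13 (SD, n = 7), and that of PI was -6.23 ± 2.34 (SD, n = 8).

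Acidic mammalian chitinase had the same overall order of AI and MI over PI. The 8 AI arrays had a lowest value of 1.70, a median of 8.15 and a highest value of 8.74. The 7 MI arrays had a lowest value of 0.27, a median of 6.82 and a highest value of 8.32. In PI the values were -9.10, -7.75 and -6.72 for the lowest array, the median and the highest, and 3 of the 8 arrays were well above background. Here too no PI array reached any of the 15 AI and MI arrays. AI2 (1.70) and MI3 (0.27) were closest to PI, and the other 13 lay at 5.97 or higher. For CUST_L1_86990 the mean of AI was 7.48 ± 2.35 (SD, n = 8), that of MI was 6.15 ± 2.74 (SD, n = 7), and that of PI was -7.71 ± 0.82 (SD, n = 8).

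**Figure D1:**
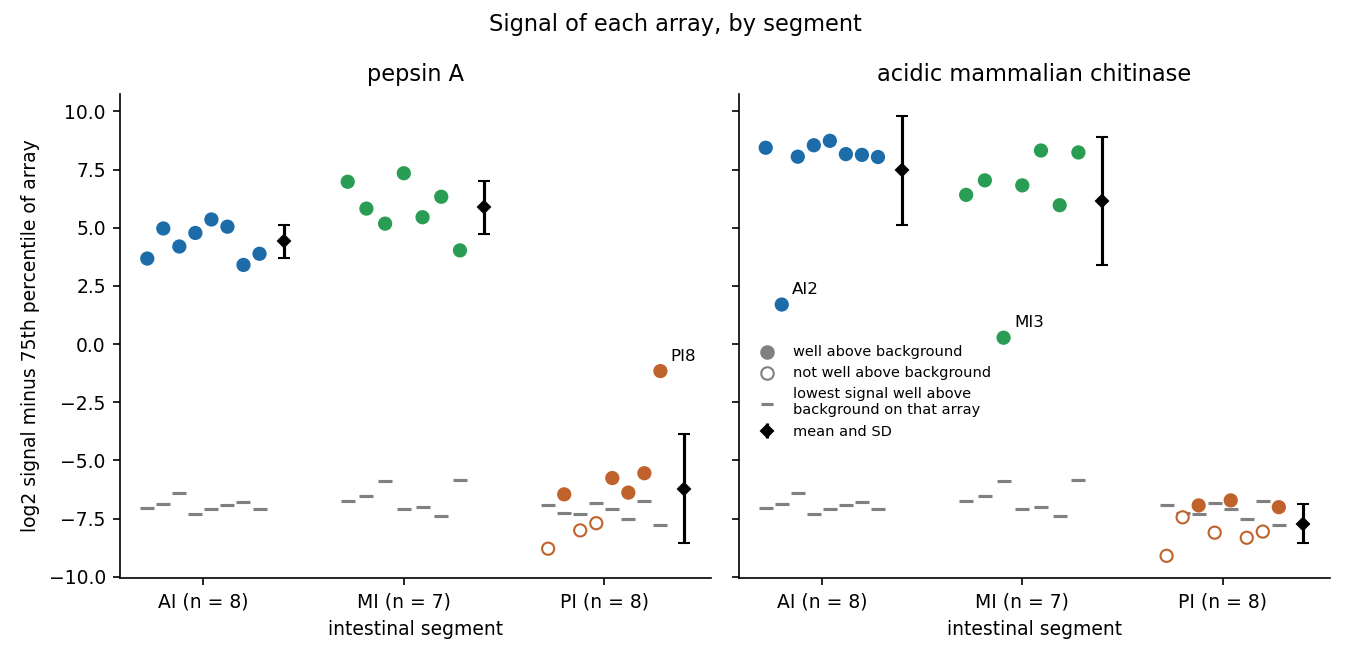
Signal of pepsin A (left) and acidic mammalian chitinase (right) on every array (points; y axis, log2 signal minus the 75th percentile of the array) by segment (x axis), with filled points well above background, open points not, grey ticks at the lowest signal called well above background on that array, and diamonds with bars for the mean and SD. The 15 AI and MI arrays lie above the 8 PI arrays for both genes, with AI2 (1.70) and MI3 (0.27) low for the chitinase and PI8 (-1.16) high for pepsin A.

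The comparison of AI-MI with PI asked which transcripts separate the absorptive front of the intestine from its end. Pepsin A was 11.32 log2 units (SE 0.68) higher in AI-MI than in PI, a fold of 2562 (95% confidence interval 963 to 6815, limma, adjusted p = 2.39e-12). Acidic mammalian chitinase was 14.57 log2 units (SE 0.88) higher, a fold of 24347 (95% confidence interval 6950 to 85291, limma, adjusted p = 2.22e-12). These fits took all arrays as independent, though arrays of equal replicate number may come from 1 fish. With the replicate number as a block, the differences were 11.45 (SE 0.72) for pepsin A and 14.63 (SE 0.90) for the chitinase. A call by itself was common: of 12894 probes tested, 21.5% had a significantly brighter signal in AI-MI and 22.6% in PI. By size, the chitinase had the second largest difference in favor of AI-MI of all probes tested and pepsin A the fifth. These ranks were taken against mostly dim PI signals. With normexp background correction they were 2 and 9, and with signals under the detection limit raised to that limit 2 and 5. Within slide 3 alone, the slide of PI8, they were 1 and 17. The 15 AI and MI arrays all exceeded the 8 PI arrays for 3.99% of the 12775 probes with a value on every array. The names come from a table of genes that the study called on these same arrays, so the AI-MI vs. PI call of a named gene is not independent evidence. The paper also measured the chitinase, but not pepsin A, by real-time qPCR in AI and PI. It reports a strong linear correlation of array and qPCR folds over the genes so measured. No qPCR value was used here. Bulk RNA cannot tell fewer cells of a type from less RNA per cell.

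AI and MI each showed the difference when set against PI alone. Against PI, pepsin A was 10.64 log2 units higher in AI (fold of 1596, adjusted p = 1.88e-08, n = 8 and 8, limma) and 12.10 higher in MI (fold of 4400, adjusted p = 3.87e-08, n = 7 and 8, limma). The chitinase was 15.19 log2 units higher in AI (fold of 37351, adjusted p = 2.84e-10, limma) and 13.87 higher in MI (fold of 14929, adjusted p = 1.33e-08, limma). Calls higher in AI than in PI were made for 20.7% of probes, and calls higher in MI than in PI for 16.3%. These comparisons share the PI arrays. They also reuse the arrays of the AI-MI vs. PI comparison from which the names come, so they are not independent evidence either.

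The denominators of these folds are dim, so their size depends on how dim signals are treated. With normexp background correction the AI-MI vs. PI fold was 264 for pepsin A and 1589 for the chitinase, and with signals under the detection limit raised to that limit it was 1901 and 14756. Without PI8 the pepsin A folds were 4230 for AI-MI, 2635 for AI and 7266 for MI. Without AI2 the chitinase fold of AI over PI was 66180, and without MI3 that of MI over PI was 29446. With AI2, MI3 and PI8 all left out, AI-MI minus PI was 12.05 log2 units for pepsin A and 15.58 for the chitinase, and both stayed called.

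**Figure D2:**
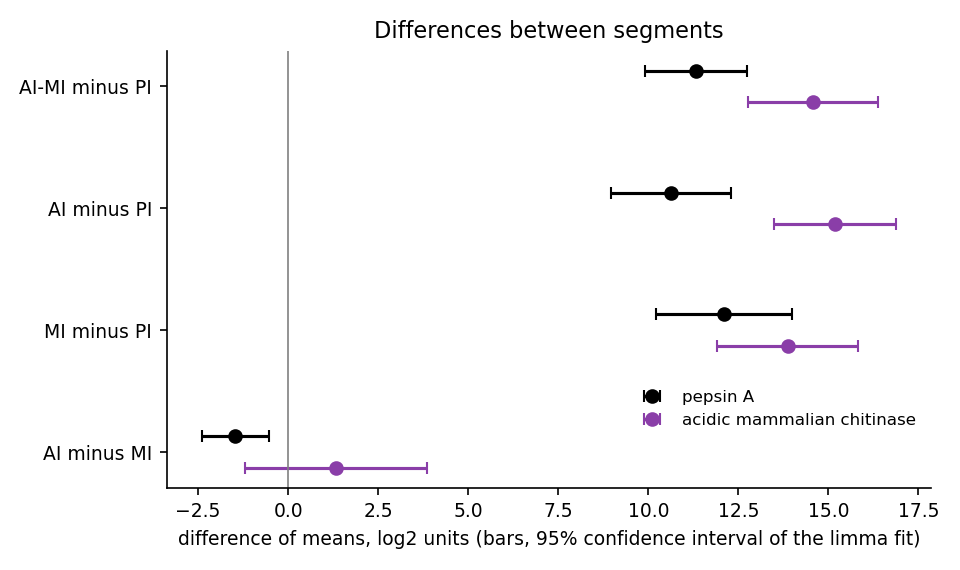
Difference of segment means in log2 units (x axis; points, with bars for the 95% confidence interval of the limma fit) for the 4 comparisons (y axis), pepsin A in black and acidic mammalian chitinase in purple. All 6 differences against PI lie far right of 0, at 10.64 to 15.19, while AI minus MI is -1.46 for pepsin A and 1.32 for the chitinase.

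In PI, pepsin A was faint on 7 arrays and plain on 1. The processed signal of CUST_L12_87775 was 1.31 to 20.1 intensity units on PI1 to PI7 and 518 on PI8, where the median pixel of the spot read 473 against 21 to 42.5 on the other PI arrays. On the log2 scale PI8 was at -1.16 and the next PI array at -5.55, still below the lowest AI array at 3.40. The chitinase did not share this: CUST_L1_86990 read 8.99 intensity units on PI8 and 1.06 to 6.61 on the others. SLC15A1 was also highest in PI on PI8 (2.62), but it was nearly as high on PI7 (1.88), where pepsin A was at -5.55. Lysozyme C, a bacteriolytic enzyme, was at 2.19 on PI8 and 2.48 on PI7, against -3.23 to -0.97 on the other 6. The scavenger receptor SR-B1, a lipoprotein receptor, was at -1.42 and -1.24 on these arrays and at -4.10 to -3.30 on the others. PI7 and PI8 lie on the slide with the later scan, as does PI6, on which pepsin A was at -6.38. Without PI8 the PI mean of pepsin A was -6.95 ± 1.23 (SD, n = 7). The part of these other transcripts in the PI8 signal was not tested.

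The AI and MI means had opposite orders for the 2 enzymes, and neither difference passed the adjusted threshold. For pepsin A, AI minus MI was -1.46 log2 units (95% confidence interval -2.40 to -0.52, a fold of 2.76 in favor of MI), with an adjusted p of 0.222 in limma. The exact permutation test over the 6435 ways to split the 15 arrays, two-sided and for this gene alone, gave p = 0.0103. Without MI7 the difference was -1.77 (adjusted p = 0.0635, limma), and without AI2 it was -1.54 (adjusted p = 0.0711, limma). Of the 7 MI arrays, 5 lay above the highest AI array, and MI7 (4.03) was the only one below the AI median. In each of the 7 replicate numbers that both segments have, pepsin A was higher in MI, with AI minus MI from -3.30 to -0.095 log2 units. The labels do not say that equal numbers mark the same fish, and MI did not meet the pairing rule given below. These 7 differences are thus a description and not a paired test.

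Acidic mammalian chitinase was 1.32 log2 units higher in AI than in MI, with a 95% confidence interval of -1.21 to 3.85 that allows a difference in either direction (limma adjusted p = 0.683; exact permutation p = 0.395). The width of this interval went with AI2 and MI3. Without AI2 the 7 AI arrays of CUST_L1_86990 spanned only 8.04 to 8.74, with a mean of 8.30 ± 0.27 (SD, n = 7), while the 6 MI arrays other than MI3 ran from 5.97 to 8.32 with a mean of 7.13 ± 0.96 (SD, n = 6). Leaving out both gave a difference of 1.17 (adjusted p = 0.0866, limma), of about the same size with less spread. Leaving out only AI2 gave 2.15, and only MI3 0.34. Over all 12894 probes limma called 0 (0%) between AI and MI, with 1638 at an unadjusted p under 0.05; the methods' t-test also called 0, and the joint fit of the 3 segments called 49. The count depends on single arrays: limma called 588 without AI2, 40 without MI7 and 295 without AI2 and MI3. Neither enzyme was among the calls in any of these fits.

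The direct comparison of the enzymes used the log2 ratio of pepsin A to chitinase within each array, in which the scaling of the array cancels, and only its differences between arrays are read. AI minus MI of this ratio was -2.79 log2 units (two-sided exact permutation p = 0.0744, n = 8 and 7), which does not pass the 0.05 threshold. It passed without AI2 (-3.69, exact permutation p = 0.00524), without MI7 (-3.44, exact permutation p = 0.0293) and without AI2 and MI3 together (-2.83, exact permutation p = 0.00583). Without MI3 alone it was -1.92 (exact permutation p = 0.154). With any other single array left out it did not pass either (exact permutation p = 0.0523 to 0.117). AI2 and MI3 were set apart after their chitinase values, which enter this ratio, had been seen. The ratio lay between -4.76 and -3.12 on 7 AI arrays and at 3.27 on AI2, and in MI it ran from -4.21 on MI7 to 4.90 on MI3, so MI7 lay among those 7 AI arrays and AI2 did not.

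**Figure D3:**
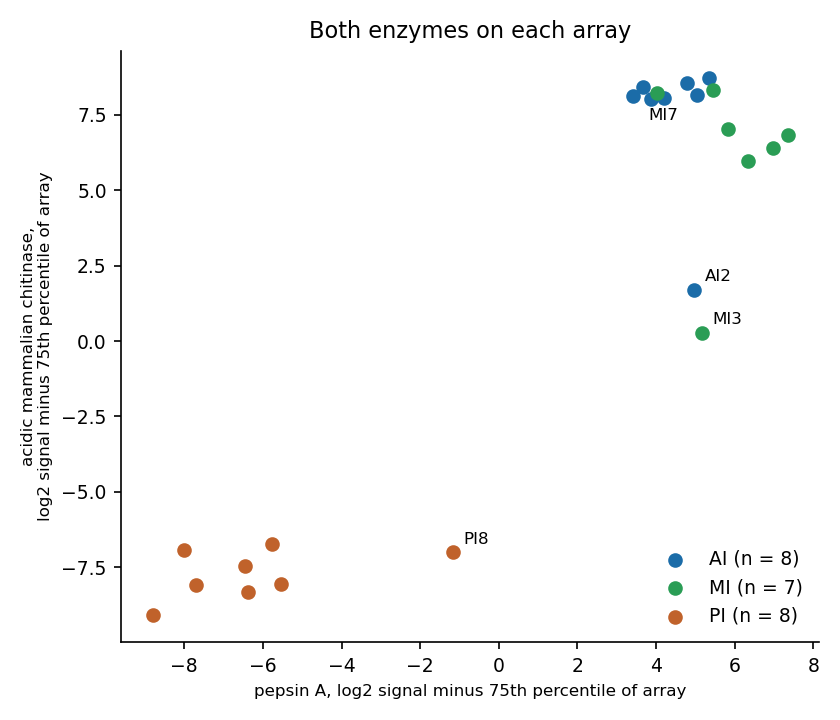
Pepsin A (x axis) against acidic mammalian chitinase (y axis), both as log2 signal minus the 75th percentile of the array, 1 point per array, colored by segment. PI forms a group of its own at the lower left, MI7 lies among AI, and AI2 and MI3 keep a pepsin A signal of 4.97 and 5.18 at a chitinase signal of 1.70 and 0.27.

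The relation of the enzymes inside AI and MI depended on AI2 and MI3. Across the 15 AI and MI arrays Pearson's r between pepsin A and the chitinase was -0.23 (Spearman's rho -0.39), and over the 13 arrays without AI2 and MI3 it was -0.73 (rho -0.50). Within AI it was -0.25, or 0.56 over the 7 arrays without AI2, and within MI it was 0.025, or -0.76 over the 6 arrays without MI3. Over all 23 arrays it was 0.92, since both enzymes are low in PI. AI2 and MI3, where the chitinase was lowest, had pepsin A signals of 4.97 and 5.18, inside the range of their segments. These arrays share slides and scaling, and the correlations here and below are descriptions.

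Among named probes, the one most like pepsin A across AI and MI was L3_26459, named pregnancy-associated glycoprotein, with r = 0.98 (rho 0.99) over the 15 arrays. Pregnancy-associated glycoproteins are, in cattle and related mammals, placental proteins of the pepsin family of aspartic peptidases. It had r = 0.92 within AI, 0.98 within MI, and 0.96 over the 13 arrays without MI1 and MI4. Of 12204 probes compared, it alone exceeded r = 0.9 with pepsin A. Its signal was -2.45, -1.38 and -0.75 in AI (lowest, median and highest), -1.79, -0.27 and 1.0 in MI, and -5.53 to -4.68 in PI. It was 4.04 log2 units higher in AI-MI than in PI (adjusted p of limma under the threshold, as for every named gene below unless stated), and PI8, at -4.68, lay next to PI5 at -4.80. Whether the probe L3_26459 and CUST_L12_87775 bind transcripts of the same gene or of related genes was not tested, because probe sequences were not used here.

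The next named probes were plakophilin-1, a desmosomal protein (r = 0.88), phospholipase B1, a brush border lipase (r = 0.86), adiponectin receptor protein 2 (r = 0.85) and beta-chimaerin, a Rac GTPase-activating protein (r = 0.85). The unnamed probes L12_82668 and L3_66316 had r = 0.87 each. Phospholipase B1 had medians of -0.71 in AI and 2.81 in MI, and on PI8 it was at -1.42 against -4.33 to -3.12 on the other PI arrays, so it was high on the same PI array as pepsin A. At the opposite end, carcinoembryonic antigen-related cell adhesion molecule 5 had r = -0.86, with a median of 0.79 in AI and -7.99 in MI, where only 2 of 7 arrays were well above background.

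The chitinase had other companions. Across the 15 AI and MI arrays the most alike named probes were transcription factor GATA-4-like L1_62752 (r = 0.96), GATA-4 L1_39434 (r = 0.94), the neutral amino acid transporter B(0)AT1 (r = 0.94), natterin-3-like (r = 0.94) and apolipoprotein B-100-like (r = 0.92), and the unnamed probes L1_56715 (r = 0.90) and L1_21271 (r = 0.89). GATA-4 is a zinc finger factor that in the mouse is made in the epithelium of the proximal small intestine, and natterins are proteins first known from the venom of a toadfish. The value of r rests in part on AI2 and MI3: over the other 13 arrays it was 0.90 for both GATA-4 probes, 0.82 for B(0)AT1, 0.94 for natterin-3-like and 0.54 for L1_21271. Spearman's rho over the 15 arrays was 0.76 for GATA-4-like, 0.825 for GATA-4, 0.81 for B(0)AT1 and 0.875 for natterin-3-like. It was 0.76 for apolipoprotein B-100-like, 0.89 for L1_56715 and 0.61 for L1_21271. Apolipoprotein B-100-like was well above background on 7 of 8 AI and 6 of 7 MI arrays. On AI2 and MI3 the GATA-4-like signal was -6.29 and -5.59, against -3.55 to -0.73 on the other 13 AI and MI arrays. Natterin-3-like was at 2.0 and 4.06 on them, and at 5.79 to 8.78 on the others. B(0)AT1 was at 3.06 and 1.87, against 4.54 to 7.27. Both GATA-4 probes were not well above background on any PI array.

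**Figure D4:**
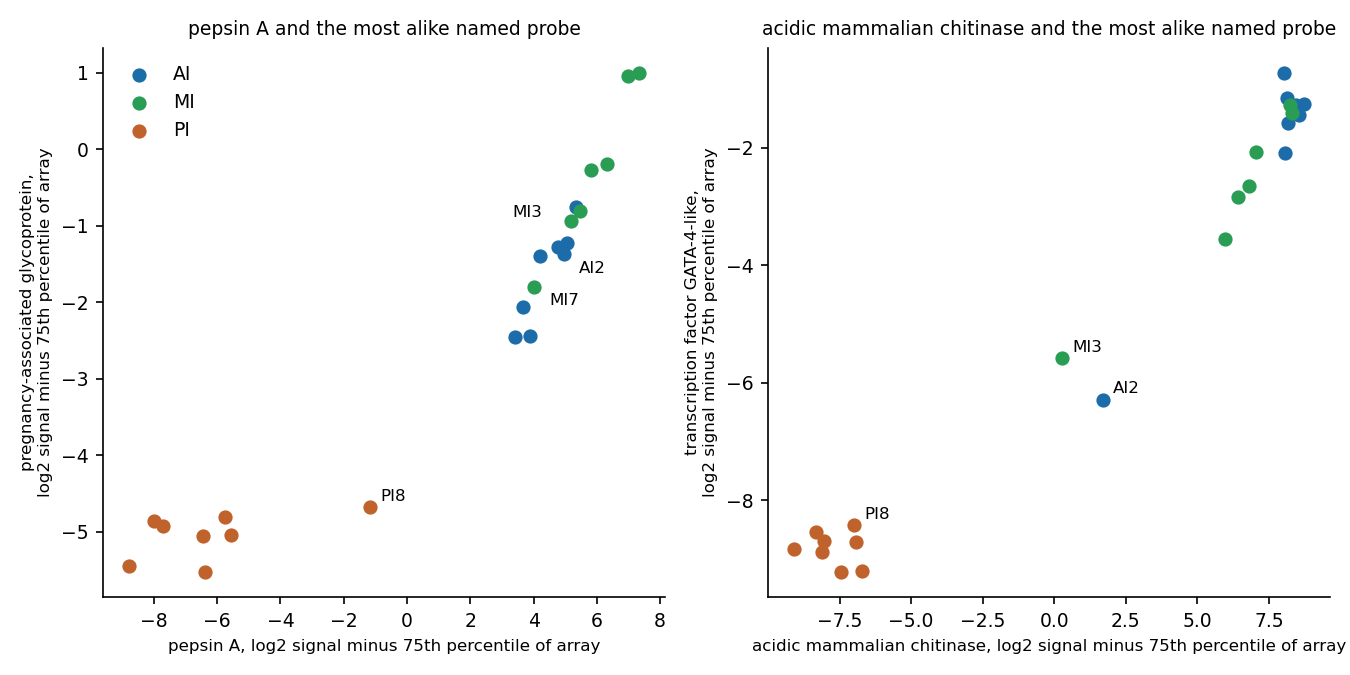
The named probe most like each enzyme over the AI and MI arrays: pregnancy-associated glycoprotein (y axis) against pepsin A (x axis) on the left, and transcription factor GATA-4-like against acidic mammalian chitinase on the right, all as log2 signal minus the 75th percentile of the array, 1 point per array. On the left the AI and MI arrays follow a line (r = 0.98) and the PI arrays lie flat along the bottom, off that line, and on the right AI2 and MI3 lie between the PI arrays and the other AI and MI arrays.

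Over all 23 arrays the most alike named probes were, for pepsin A, sorting nexin-18 (r = 0.98), a protein named C5orf4 homolog (r = 0.98), adiponectin receptor protein 2, DENN domain-containing protein 5B and SR-B1 (each r = 0.97). For the chitinase they were ubiquitin carboxyl-terminal hydrolase 3, Ecto-NOX 1-like and the WD repeat protein WDR81 (each r = 0.99), and GATA-4-like (r = 0.99) and thymidylate synthase (r = 0.98). At this span 167 of 12774 probes had r over 0.9 with pepsin A and 294 with the chitinase. Over the AI and MI arrays it was 1 and 8 of 12204, so r over 0.9 was reached by more probes over all arrays. Probes as alike as those listed were not counted. GATA-4-like was the only named probe in both lists of the chitinase, and adiponectin receptor protein 2 in both lists of pepsin A.

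Over AI and MI pooled, gastrotropin, which marks the distal intestine, went with both enzymes, in opposite directions. Over the 15 arrays r with gastrotropin was 0.74 for pepsin A (rho 0.66; 0.70 over 13 arrays without MI1 and MI4) and -0.65 for the chitinase (rho -0.79; -0.77 over 13 arrays without AI2 and MI3). Within AI it was 0.55 for pepsin A and -0.78 for the chitinase, and over the 7 AI arrays without AI2 it was 0.52 and -0.12, so inside AI the chitinase relation rests on AI2. Within MI it was 0.70 and -0.66, and over the 6 MI arrays without MI3 it was 0.94 and -0.92. The chitinase stayed between 8.04 and 8.55 on the 5 arrays with gastrotropin between -2.41 and 4.45, was 8.13 to 8.74 on the 3 AI arrays below that, and was 0.27 and 1.70 on the 2 arrays with the most gastrotropin. In PI, where gastrotropin was 8.91 to 9.78, both enzymes were low. Gastrin, the hormone that drives gastric acid secretion, had r = 0.81 with the chitinase over the 15 arrays (0.89 over 13 arrays without AI2 and MI3) and -0.61 with pepsin A (-0.57 over 13 arrays without MI1 and MI4). For the chitinase it was 0.99 within AI but 0.32 without AI2, and 0.65 within MI (0.82 without MI3). For pepsin A it was -0.24 within AI but 0.53 without AI2, and -0.60 within MI (-0.83 without MI3).

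**Figure D5:**
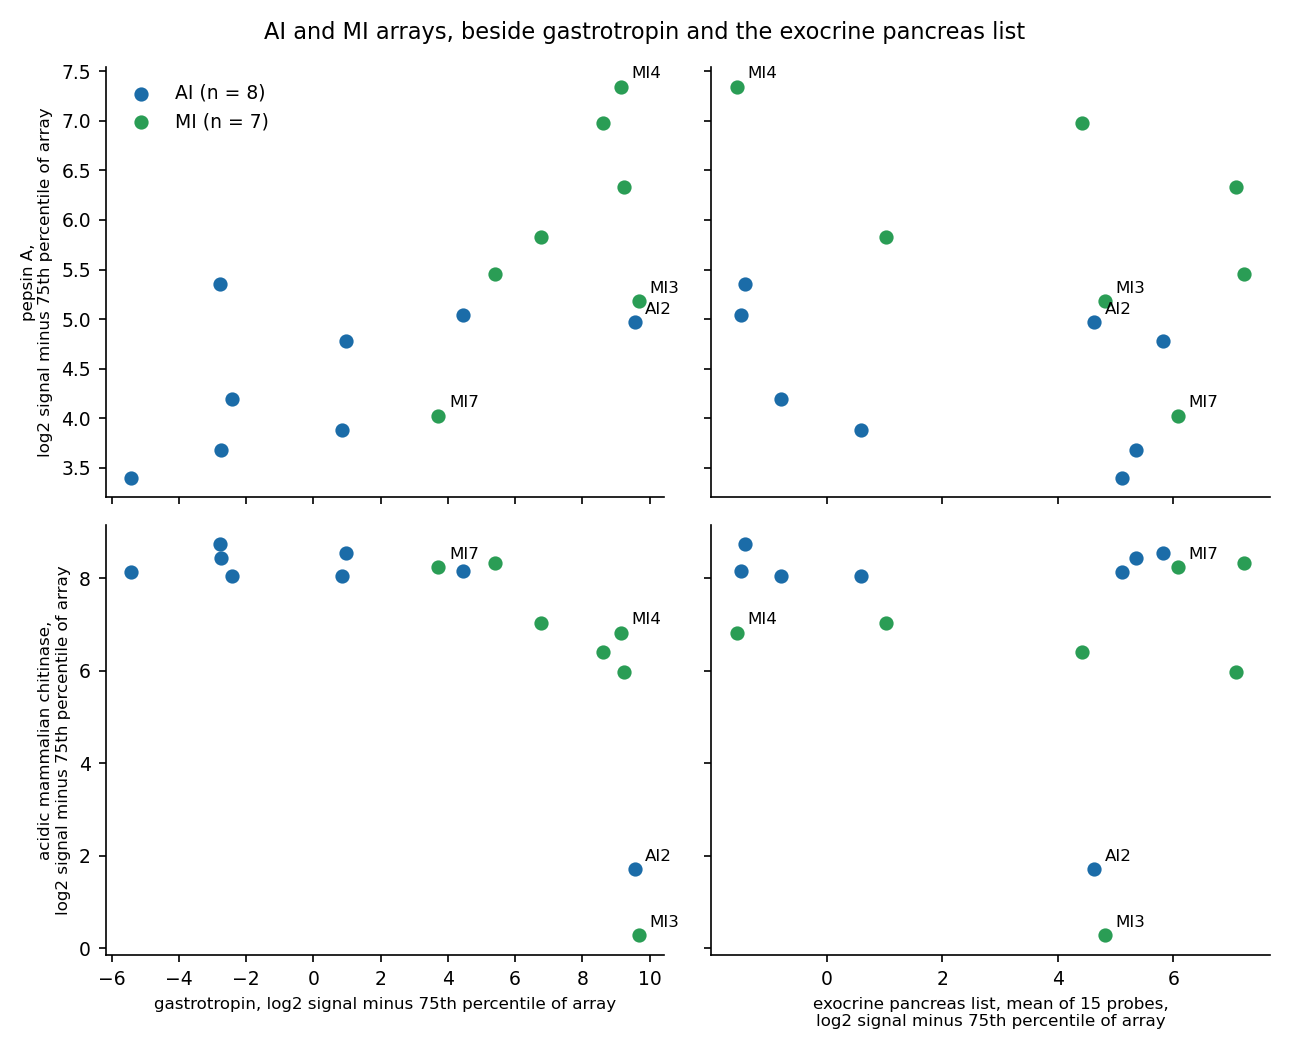
Pepsin A (top row) and acidic mammalian chitinase (bottom row) on the y axis against gastrotropin (left) and the mean of the 15 exocrine pancreas probes (right), all as log2 signal minus the 75th percentile of the array, for the 8 AI and 7 MI arrays. Chitinase is lowest on the 2 arrays with the most gastrotropin, AI2 and MI3, but is 5.97 on MI6, where gastrotropin is 9.23. Pepsin A is highest on MI4, the array with the lowest pancreas mean plotted (-1.56). It is next highest on MI1 and MI6, with pancreas means of 4.42 and 7.08.

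Tissue next to the intestine can reach a segment, so lists of such markers were set beside the enzymes. The exocrine pancreas, which in many teleosts lies diffusely around the gut, was represented by 15 probes (trypsins, chymotrypsins, elastases, carboxypeptidases, amylase and lipases). Their mean ranged from -1.49 to 5.82 in AI, from -1.56 to 7.23 in MI and from -4.47 to 0.77 in PI. All 15 were called higher in AI-MI, against 21.5% of all probes tested (22.6% were called higher in PI). Members of this list and of those below were named from the study's table of calls. A call was thus likely beforehand, and only its direction was open. The median difference of the 15 was 6.25 log2 units against 0.0056 over all probes. The largest were elastase 2A (8.74), elastase-1 (8.43), bile salt-activated lipase (7.61) and chymotrypsin-C (7.50). The first 2 sizes rest in part on dim signals: elastase 2A was well above background on 5 of 8 PI arrays, elastase-1 on 2. Over AI and MI pooled, r with this list was -0.15 for pepsin A (0.027 over 13 arrays without MI1 and MI4). For the chitinase it was -0.21 (-0.079 over 13 arrays without AI2 and MI3). For pepsin A it was -0.41 within AI and -0.54 within MI, lower pepsin A going with a higher pancreas mean. For the chitinase it was -0.28 within AI but 0.17 without AI2, and -0.0048 within MI but 0.25 without MI3. The pooled rho of the chitinase was 0.11, so its relation to the list had no stable sign. MI4 had the highest pepsin A signal of all arrays, 7.34, and the lowest pancreas mean of AI and MI, -1.56. The next highest pepsin A signals, 6.98 on MI1 and 6.33 on MI6, came with high pancreas means of 4.42 and 7.08. PI5 and PI6 had the highest pancreas means of PI (0.32 and 0.77), with pepsin A at -5.76 and -6.38.

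For the stomach itself 3 probes were at hand beside the enzymes. Gastrin was 8.14 log2 units higher in AI-MI than in PI and the duodenal and gastric factor Pdx1-like 0.67 higher, while gastric intrinsic factor-like, a cobalamin carrier, had a difference of -6.96. Gastrin is also made in the intestine of teleosts, so these 3 do not mark stomach tissue alone, and subunits of the gastric proton pump were not analysed here. Smooth muscle probes (myosin-11, calponin-1, caldesmon and tropomyosin alpha-1) were all 4 called lower in AI-MI (against 22.6% of all probes tested), with a median of -1.36. The 3 hemoglobin probes were called higher (against 21.5%), with a median of 1.20. The part of neighboring tissue in the signals of the 2 enzymes was not tested beyond these values.

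Other peptidases of the same and other classes gave a mixed picture. Besides pepsin A, the named aspartic peptidases were renin, the angiotensin-forming enzyme, and the pregnancy-associated glycoprotein, and both were called higher in AI-MI, by 0.66 and 4.04 log2 units. Of 9 luminal and brush border peptidases, 7 were called higher in AI-MI and 2 in PI (all probes, 21.5% and 22.6%). Their median difference was 0.93. Meprin A subunit beta, an astacin metallopeptidase, was 9.22 higher in AI-MI, and enteropeptidase, the activator of trypsinogen, 5.05 higher, whereas a meprin A subunit beta-like probe had -1.32 (AI-MI minus PI). Lysosomal peptidases went the other way: cathepsin K, cathepsin L-like, pro-cathepsin H and legumain were all 4 called lower in AI-MI (all probes, 22.6%). Their differences were -8.52 to -0.80 log2 units. The size of the widest, that of cathepsin L-like, rests on dim signals. That probe was well above background on 0 of 8 AI and 2 of 7 MI arrays.

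The chitin and N-acetylglucosamine list held 13 other probes, of which 12 were tested. Of these, 5 were called higher in AI-MI and 7 in PI (all probes, 21.5% and 22.6%), with a median of -0.70. The widest difference among them was -2.53. Chitin synthase-like, which makes the polymer that the chitinase degrades, was 0.67 higher in AI-MI. The hexosaminidases tested, which release single N-acetylglucosamine residues, were called higher in PI, led by the beta-hexosaminidase alpha-like (AI-MI minus PI, -2.53) and alpha (-1.99) subunits, and di-N-acetylchitobiase, a lysosomal hydrolase of chitobiose units, had -0.78. Enzymes of hexosamine synthesis were called higher in AI-MI, glutamine-fructose-6-phosphate aminotransferase 2 by 1.68 and UDP-N-acetylhexosamine pyrophosphorylase by 1.39, but a pyrophosphorylase-like protein 1 had -1.73. Between AI and MI, with all arrays kept, no member of any of these lists was called.

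Chitinase can also be placed among antimicrobial proteins and lectins, for its action on chitin of fungi and parasites. Of 9 others listed there, 7 were called higher in AI-MI and 2 in PI (all probes, 21.5% and 22.6%), with a median of 5.71. Natterin-3-like, well above background on only 2 of 8 PI arrays, had a difference of 15.09, so its size rests on dim signals as that of the chitinase does. Lysozyme C was 7.69 log2 units higher and fucolectin, a fucose-binding lectin, 7.04 higher, while beta-defensin had -7.29 (AI-MI minus PI). All genes of these lists carry names from the study's own table of calls, so their counts are not independent of the AI-MI vs. PI comparison.

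The spread of the enzymes within a segment was large for most groups. Within AI the SD of the chitinase exceeded that of 99.3% of tested probes, but without AI2 that of only 29.4%. Within MI it exceeded 99.5%, and without MI3 94.3%. For pepsin A the share of probes with a smaller SD was 86.8% (AI), 96.1% (MI) and 99.4% (PI), the last being 97.8% without PI8. For the chitinase in PI it was 93.9%. Only 5 of 8 PI arrays for pepsin A and 3 of 8 for the chitinase were well above background. The PI spreads thus include signals near the detection limit.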

How the data were processed

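RNA of 23 intestinal segments was measured on 1-color Agilent arrays. The authors extracted spots with Agilent Feature Extraction 11.5.1.1 (per the labels), and the deposited processed signal is a background-subtracted intensity, not scaled between arrays; an eighth MI array was not analysed here. The labels and the paper give different RNA amounts for labeling. The authors' deposited table holds log2 values centered per probe and was used as an alternative. Outlier spots were left out, log2 signals were scaled to the 75th percentile of each array, and 12894 probes called well above background on 7 or more arrays were tested with limma 3.58.1 in R 4.3.3 (two-sided, Benjamini-Hochberg, threshold 0.05). Fits were tested on simulated data. Gene names come from the paper's supplementary table, which names 3630 probes here; 0 probe IDs matched the RefSeq gene table (dlabrax2021). Correlations used Python 3.11.15, numpy 2.4.6 and pandas 2.3.3.

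The 2 genes, the marker lists and the tests were chosen with earlier results of these data known. Named genes are the 2 enzymes, per enzyme the 5 named and 2 unnamed probes with the highest r over the 15 AI and MI arrays (among tested probes with 10 or more of these arrays well above background) and over all arrays, and up to 4 genes per list with the largest AI-MI vs. PI difference; others were named after their values were seen. Replicate numbers pair AI with PI arrays by the rule that deviations from segment means correlate over 0.1 in every pair (8 of 8, 0.18 to 0.59), but not MI (6 of 7 pairs with either segment). For MI the median r was 0.33 with AI and 0.44 with PI, against -0.07 and -0.04 for unequal numbers. Most equal numbers share a slide. Replicate 3 (AI on slide 1, PI on slide 2) and replicate 6 (AI on slide 2, PI on slide 3) do not, and their AI and PI arrays also correlated over 0.1. The parts of a shared fish and of a shared slide in these correlations were not tested. The main fits did not use the pairing. Each of 3 slides held all segments. Alternatives were quantile normalization, normexp (offset 50, on median signals), the deposited table, dim signals raised to the detection limit, no filter, the methods' t-test, replicate and slide blocks, a joint fit and each array left out; fits within slides and without AI2, MI3 and PI8 were added after seeing the data. The number of arrays limits the precision.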

Additional observations from a re-analysis of the deposited data

Results flagged for a closer look

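For 3 of the 6 groups checked (2 enzymes in 3 segments), a single array lay far from the rest of its segment by the ratio of its gap to the whole range; chance alone gives this for about 1 in 20 groups. Pepsin A on PI8 was at -1.16 with the next PI array at -5.55 (ratio 0.575 against a critical value of 0.526 for 8 arrays). Acidic mammalian chitinase on AI2 was at 1.70 with the next AI array at 8.04 (ratio 0.901, critical value 0.526). Acidic mammalian chitinase on MI3 was at 0.27 with the next MI array at 5.97 (ratio 0.708, critical value 0.568 for 7 arrays).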

How the results depend on the processing

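All differences against PI kept their direction under every alternative, and all kept their call except pepsin A in MI vs. PI within slide 3 alone, where it was 9.54 (adjusted p = 0.0622, limma; the cause was not tested). Normexp shrank the log2 differences of AI-MI vs. PI to 8.04 for pepsin A and 10.63 for the chitinase. Leaving out 1 array at a time gave, for pepsin A, 10.96 to 12.05 (AI-MI vs. PI), 10.27 to 11.36 (AI vs. PI), 11.74 to 12.83 (MI vs. PI) and -1.77 to -1.22 (AI vs. MI), and for the chitinase 14.37 to 15.04, 14.99 to 16.01, 13.50 to 14.85 and 0.34 to 2.15. For the ratio of pepsin A to chitinase between AI and MI it gave -3.69 to -1.92, and -2.83 without AI2 and MI3. With the replicate number as a block, the differences were 11.45, 10.64, 12.83 and -1.39 for pepsin A (the last with adjusted p = 0.132, limma). They were 14.63, 15.19, 13.97 and 1.24 for the chitinase, and the ratio was -2.63 (exact permutation p = 0.141). The block changed no call. MI has no replicate 8, so the block in effect left PI8 out of MI vs. PI, and AI8 out of AI vs. MI and the ratio. The differences of these comparisons equal those with that array left out. The number of probes called between AI and MI went from 0 to 588 without AI2, 40 without MI7, 295 without AI2 and MI3, and 49 in the joint fit, and was 0 when any other single array was left out. Signals near the detection limit in PI make the size of the folds against PI uncertain.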
